A study of Caenorhabditis elegans with 95 samples.

Results

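The daily expression profiles of *C. elegans* under a light–dark (LD) cycle were set against those of animals that were never entrained. The comparison uses every LD array and every non-entrained control array of the series, 29 of 95 arrays in all. The 18 LD arrays form 3 time series (3, 4 and 6) and the 11 control arrays form 2 (4 and 6). All animals were wild-type Bristol N2 adults, sampled as whole bodies and grown on HB101 bacteria at 18°C. Both conditions passed from L4 onto plates with 25 µM FUDR, a drug that blocks the production of progeny. LD animals saw 12 h of light and 12 h of dark at 500 to 1000 lux for 5 days, and were sampled at hours 2, 6, 10, 14, 18 and 22 of the last day, where hour 0 is lights on. Control animals shared an incubator with the entrained ones, were kept in complete darkness, and were sampled at the same hours. Hour 6 of control series 6 was not analysed here, and the LD arrays of series 4 at hours 6 and 18 each stand for 2 biological replicates.

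Light reaches *C. elegans* through few known sensors, since the animal has no eyes. LITE-1, a protein related to insect taste receptors, acts as a photoreceptor in sensory neurons, where cyclic GMP and its channels carry the signal further. Animals have homologs of many clock genes of flies and mammals, among them *lin-42* (the Period homolog), *tim-1* (Timeless) and *kin-20* (the casein kinase of the clock). Controls that never saw light show how far scores differ between the same hours without a light cycle.

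The deposited scores are log2 expression relative to the mean of a time series, with each array then set to mean 0 and variance 1. They carry no expression level and no fold change, so a difference is in score units, or SD of an array. For each probe set, the phase difference is the mean score at hours 2, 6 and 10 minus the mean at hours 14, 18 and 22, taken within a series. It compares light with dark hours in LD, and the matching hours of constant darkness in the controls. The methods describe LD populations under opposing cycles in separate incubators. The labels do not give the population of an array, so light hours may come from other animals than dark hours, and in LD population and phase cannot be told apart. The fits treat arrays as the unit, and their errors and p-values measure the spread between arrays within the time series.

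In 2 arrays the spread of the values stood apart before standardization, as recovered from the deposited scores. The SD is given relative to the mean of its own series, so values compare within a series only. The control array of series 4 at hour 18 had a relative SD of 1.95, and the other arrays of that series ranged from 0.670 to 1.01. LD series 3 at hour 22 had 1.44, and the other arrays of that series ranged from 0.772 to 1.01. Markers of tissues could be checked only for whether they varied, since a steady gene and an undetected gene both give a score at the value that unchanging probe sets share. All 5 markers of body wall muscle, all 5 of oocytes and germ line and all 5 of embryos varied beyond the filter, as did 5 of 6 for intestine, 4 of 5 for neurons, 4 of 4 on the array for cuticle and hypodermis, and 2 of 3 on the array for sperm. Sperm and embryo markers therefore varied in animals kept on FUDR, and their part in the results below was not tested.

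Across 17095 probe sets, no phase difference in LD was told apart from that of the controls at a Benjamini-Hochberg adjusted p under 0.05 in a joint limma fit (0 called, 0.0%). The smallest adjusted p was 0.101. At an unadjusted p under 0.05 the count was 2644 (15.5%), of which 1501 (8.78%) were higher in LD at light hours and 1143 (6.69%) were lower. The 24-h cosine and sine terms, which take up a rhythm with any peak time, also gave 0 calls (0.0%; 1943 or 11.4% unadjusted, smallest adjusted p 0.252). A test of the whole 6-hour profile called 41 probe sets (0.24%). When series 4 and 6 were blocked on matched number and hour, a fit of fewer arrays, it called 0 (531 at an unadjusted p under 0.05, limma). Taken alone, LD had 1715 called phase differences (10.0%) and the controls had 1 (0.00585%). That 1 is *Y50D4C.5*, named after its value was seen, with phase differences of −2.97 and −5.04 in the control series and of −0.46, −0.26 and 0.08 in LD series 3, 4 and 6 (adjusted p = 0.00555 for the controls, limma). A count in LD beside a count in the controls does not test their difference, and the controls have fewer arrays and series.

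The absence of calls depended on which series entered the fit. Without LD series 4 there were 300 calls (279 higher and 21 lower in LD), without control series 4 there were 69 (14 and 55), and without control series 6 there were 1253 (473 and 780). Leaving out LD series 3 or LD series 6 gave 0, as did leaving out the control array of wide spread (series 4, hour 18), with 2415 at an unadjusted p under 0.05 in limma. With control series 4 alone as the control, most calls were thus lower in LD, as they were with control series 6 alone, but without LD series 4 most were higher.

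The 5 series differed in spread. Over the 17095 probe sets, phase differences had an SD of 1.69 in LD series 3, 0.74 in LD series 4 and 1.11 in LD series 6, and of 1.17 and 1.27 in control series 4 and 6. In score units the controls thus spread as widely over probe sets as LD series 6 and more widely than LD series 4. LD series 4 and 6 had been centred over 12 arrays, with their free-running day, and the other series over 6 or 5 arrays. Each array was then set to variance 1, so a score unit need not be the same size in each series. A phase difference larger than 1 in size was found for 36.5%, 11.7% and 21% of probe sets in the LD series and for 24.8% and 23.9% in the control series. The LD series resembled each other, with Pearson's r across probe sets of 0.32 for series 3 and 4, 0.29 for series 3 and 6, and 0.33 for series 4 and 6. The control series opposed each other, with r = −0.37. That value stayed between −0.41 and −0.23 when any 1 array was left out, and was weakest without control series 4 at hour 18. Control series 4 correlated with the LD series at −0.22, −0.04 and −0.17, and control series 6 at 0.16, 0.13 and 0.29. These are descriptions across probe sets, which are not independent replicates and share the arrays of a series.

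**Figure D1:**
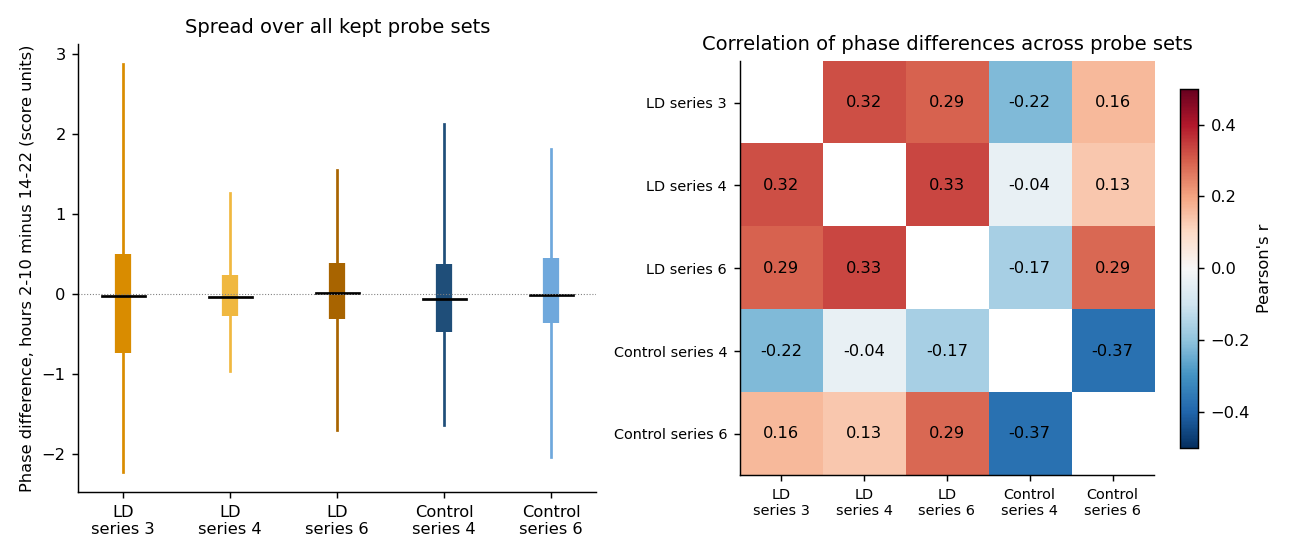
Left, phase difference (score units, hours 2 to 10 minus 14 to 22) over 17095 probe sets in each time series, with thick bars for the middle 50% of probe sets, thin lines for the 5th to 95th percentile and black lines for the median. Right, Pearson's r of the phase differences between series. The 3 LD series correlate at 0.29 to 0.33, and the 2 control series at −0.37.

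Of the 1715 probe sets called in LD, 1285 (7.52% of all) were higher in the light hours and 430 (2.52%) were lower. The split depended on the weights of the arrays, since with array weights 2401 were higher and 2315 lower, and with a linear trend over the hours 0 were called. Their values in the controls were not used in choosing them, although the controls shared in the estimate of the residual spread. The 1285 had median phase differences of 2.26, 0.55 and 1.01 in LD series 3, 4 and 6, and of −0.34 and 0.33 in control series 4 and 6. In control series 6, 942 of them (73.3%) had the sign of LD, and in control series 4 only 316 did (24.6%). The 430 gave the same picture with the sign turned, with 305 (70.9%) and 110 (25.6%) sharing the LD sign, and medians of −1.51, −0.72 and −0.81 in LD against 0.33 and −0.30 in the controls. For comparison, over all 17095 probe sets the sign of LD was shared by 60.9% in control series 6 and 45.4% in control series 4. LD-called probe sets thus leaned toward LD in 1 control series and away from it in the other.

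Both control series had the LD sign for 282 of the 1715 (16.4%; 24% of all probe sets), and both had the opposite sign for 324 (18.9%; 17.7% of all). All 3 LD series lay beyond both control series in the direction of LD for 900 of the 1715 (52.5%), against 19.1% of all probe sets. LD series entered that count on both sides, so it is a description of the 1715. LD series 3 gave the largest value in size for 1391 (81.1%; 52.4% of all). Without LD series 3, 5 probe sets were called, 5 of them among the 1715, and without LD series 6, 690 were called, 601 of them among the 1715. With 1 value per series as the unit, 0 were past it at adjusted p under 0.05 in limma and 1525 at an unadjusted p under 0.05.

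**Figure D2:**
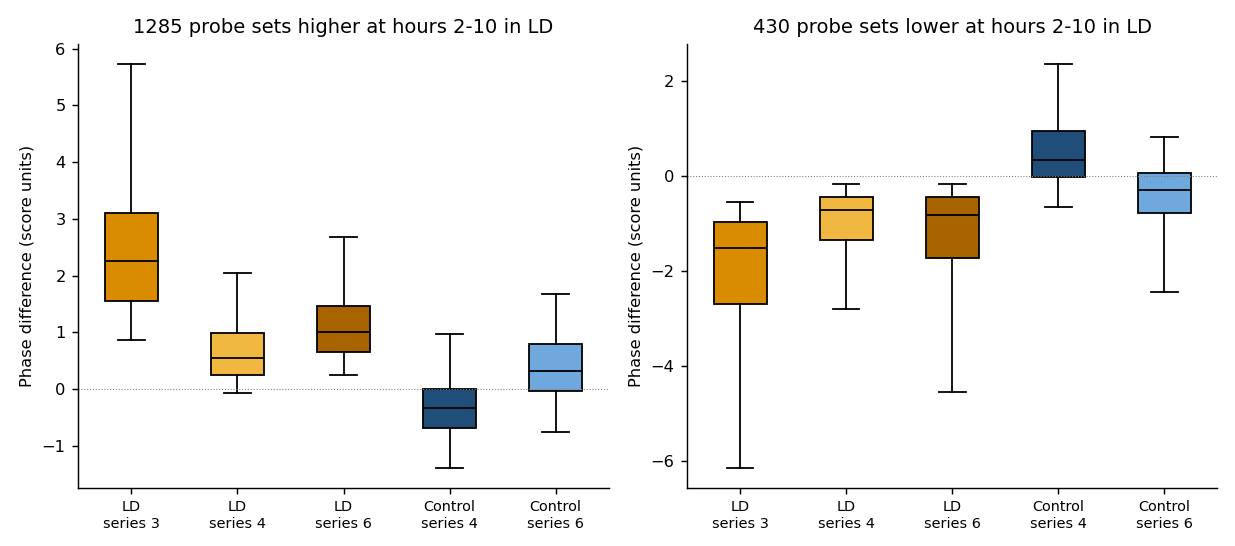
Phase differences (score units) of the 1285 probe sets called higher (left) and the 430 called lower (right) at hours 2 to 10 in LD, in each of the 5 series. Boxes span the middle 50% of probe sets with the median as a line, and whiskers run from the 5th to the 95th percentile. In control series 4 the medians are −0.34 and 0.33, opposite to LD, and in control series 6 they are 0.33 and −0.30, in the direction of LD but smaller.

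No gene passed the test of the difference. The 12 genes with the lowest p among those whose LD series had 1 sign and lay apart from both control series are therefore named as not passing. Of all probe sets, 3885 (22.7%) had all LD series above or below both control series, and 2392 (14.0%) also had 1 sign in LD. All 12 kept their direction under each of the 18 alternative settings. Leaving out a series could not turn it, since by choice all LD series lay beyond both control series. The genes were also chosen for low p, so the refits of the same arrays are descriptions only. Without LD series 4, and likewise without control series 6, 11 of the 12 passed.

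Of these genes, *dct-6*, *alp-1*, *nhr-88*, *clc-3* and *cyp-37B1* were higher in the light hours of LD. The gene with the lowest p among them was *dct-6*, named for its control by the FOXO factor DAF-16. Its scores, each relative to its series mean, ran from 0.27 to 1.48 at the 9 light-hour arrays (median 0.53) and from −1.12 to 0.36 at the 9 dark-hour arrays (median −0.74). In the controls it ran from −0.94 to 0.32 at hours 2 to 10 (5 arrays) and from −0.03 to 0.51 at hours 14 to 22 (6 arrays). Light and dark arrays of LD thus overlapped only slightly, and the control arrays leaned the other way. The phase differences of *dct-6* were 2.05, 0.67 and 1.39 in LD series 3, 4 and 6, and −0.32 and −0.52 in control series 4 and 6, a difference of 1.78 ± 0.34 (SE; limma adjusted p = 0.101).

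*alp-1* encodes an actinin-associated PDZ-LIM protein of muscle. Its light-hour scores in LD (0.29 to 1.78, median 0.93) lay above all its dark-hour scores (−2.22 to −0.31, median −0.89), with no overlap among 18 arrays. In the controls both sets of hours overlapped, from −0.70 to 0.90 and from −0.33 to 0.60. The difference of *alp-1* was 2.19 ± 0.46 (limma adjusted p = 0.146), from LD values of 2.79, 1.21 and 2.14 and control values of −0.43 and 0.22. Another probe set of *alp-1* differed by 0.67 ± 0.65, with 2.87 in control series 6.

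The nuclear hormone receptor gene *nhr-88* also had no overlap in LD, with scores from 0.21 to 4.11 in the light and from −4.13 to −0.25 in the dark. Its phase differences were 5.27, 1.76 and 2.98 in LD and −1.66 and −0.43 in the controls, a difference of 4.45 ± 0.93. Other probe sets of *nhr-88* gave smaller values, 1.55 ± 0.66 and 1.06 ± 0.78. The claudin-like gene *clc-3* (LD 5.35, 2.12 and 2.03; controls −3.25 and 0.79) differed by 4.63 ± 1.02, and the cytochrome P450 gene *cyp-37B1* (LD 1.01, 0.38 and 1.85; controls −0.37 and −2.45) by 2.37 ± 0.51. For *nhr-88*, *clc-3* and *cyp-37B1* the limma adjusted p was 0.146. For *cyp-37B1* most of the gap came from control series 6, and for *clc-3* from control series 4.

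The other 7 genes were lower in the light hours of LD. *taf-11.1*, which encodes a subunit of the general transcription factor TFIID, had the lowest p of all genes that qualified. Its LD scores ran from −1.34 to 0.13 in the light (median −0.38) and from −0.50 to 1.16 in the dark (median 0.75), whereas control scores ran from 0.53 to 1.07 at hours 2 to 10 and from −1.46 to 0.59 at hours 14 to 22. The profiles of LD and controls therefore ran against each other in every series. The phase differences of *taf-11.1* were −1.57, −1.02 and −0.37 in LD and 1.21 and 1.74 in the controls, a difference of −2.44 ± 0.45 (limma adjusted p = 0.101).

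The T-box factor gene *tbx-9*, which acts in embryonic morphogenesis, had the most even LD values of the 12, at −1.14, −1.11 and −1.01, with 1.04 and 0.58 in the controls. All its 5 control arrays at hours 2 to 10 (0.02 to 0.79) lay above all 6 at hours 14 to 22 (−0.77 to −0.02), and in LD the light-hour scores (−1.11 to 0.23) overlapped the dark-hour ones (−0.67 to 1.35). The difference of *tbx-9* was −1.92 ± 0.38 (limma adjusted p = 0.125).

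*meg-3*, whose product assembles P granules in embryos, had −2.51, −0.77 and −0.61 in LD and 2.46 and 0.42 in the controls (difference −2.84 ± 0.62). *clh-3*, which encodes a chloride channel active in oocytes, had −4.43, −1.66 and −1.95 in LD and 1.83 and 0.57 in the controls (difference −3.95 ± 0.88). *cus-2*, a homolog of a yeast splicing factor, had −3.34, −2.01 and −1.10 against 2.90 and 3.07 (difference −5.12 ± 1.15). Of the 2 genes known only by sequence names, *W05H9.4* differed by −4.65 ± 0.93 and *K08H2.3* by −2.75 ± 0.60. Adjusted p-values from limma were 0.125 for *W05H9.4* and 0.146 for the other 4. For *meg-3*, *clh-3* and *K08H2.3* control series 6 was close to 0 (0.42, 0.57 and 0.16), so control series 4 gave most of the opposite sign.

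**Figure D3:**
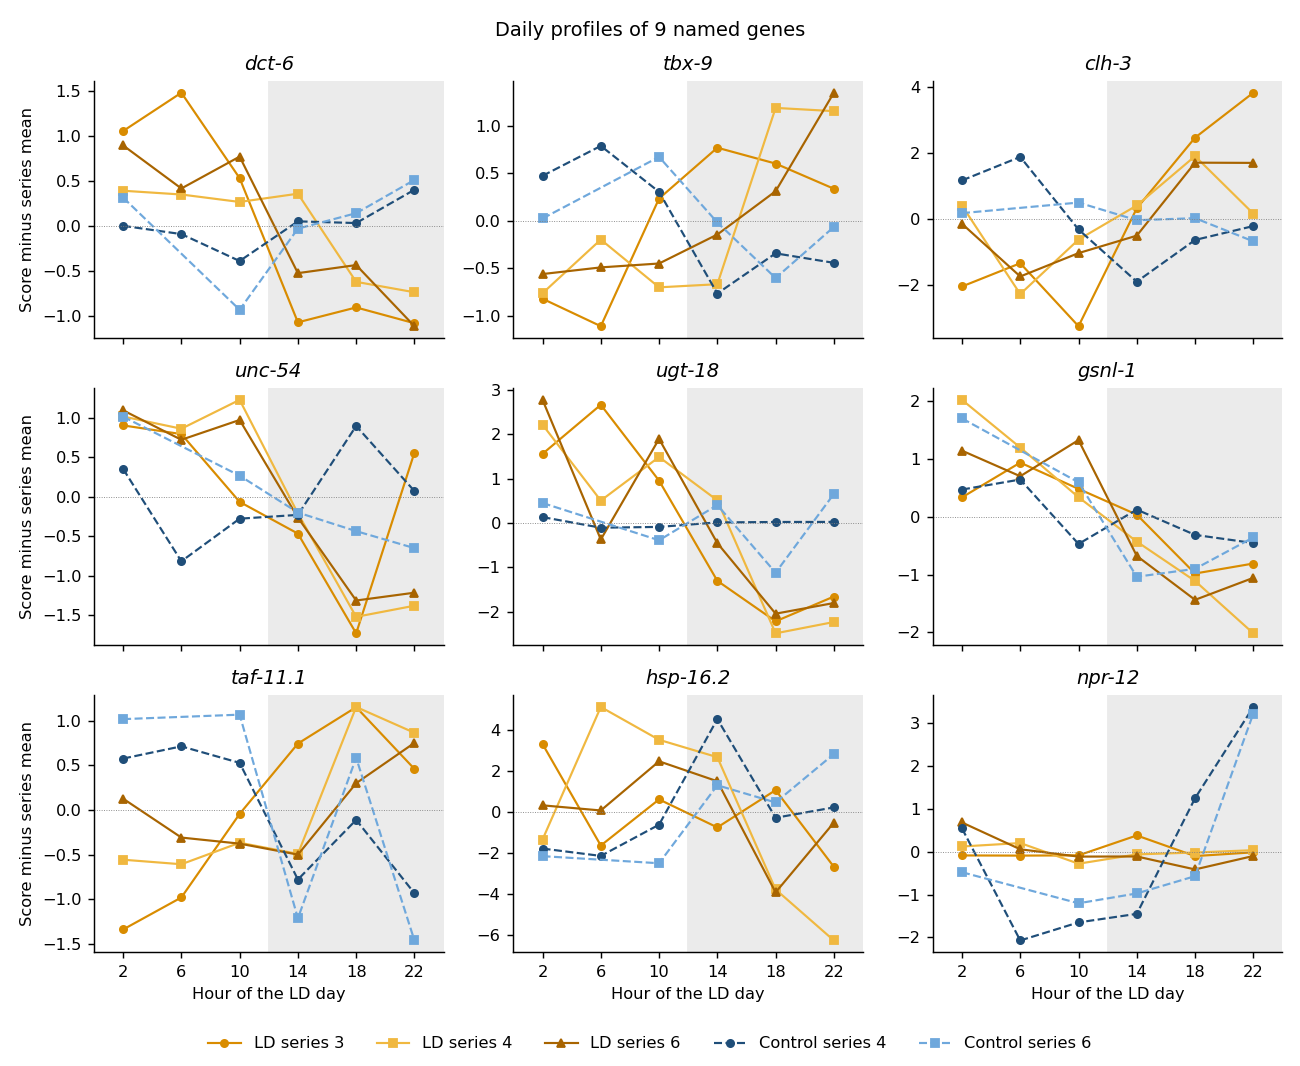
Score minus the mean of its series (y axis, score units) at hours 2 to 22 (x axis) for 9 named genes, with 1 line per time series, solid for LD and dashed for controls. Shading marks the dark hours of LD, and controls were in darkness at all hours. *dct-6* and *tbx-9* run in opposite directions in LD and controls, *ugt-18* is nearly flat in control series 4, and *npr-12* is steady in LD and peaks at hour 22 in both control series.

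The 24-h terms named 6 further genes, none of which passed (limma adjusted p 0.252 for *W03F11.5*, *Y40B10A.9*, *npr-12*, *F53E10.1* and *C53B7.2*, and 0.294 for *zmp-4*). In *npr-12* and *W03F11.5* the variation lay in the controls. The neuropeptide receptor family gene *npr-12* stayed between −0.41 and 0.68 at all 18 LD arrays, and reached 3.38 and 3.23 at hour 22 in control series 4 and 6 from −1.65 and −1.21 at hour 10. *W03F11.5* stayed within 0.05 of its mean in LD and went from −0.99 and −1.15 at hour 10 to 1.82 and 2.51 at hour 22 in the controls. *npr-12* passed the profile test (adjusted p = 0.00104, limma). *W03F11.5* was at the score shared by unchanging probe sets in LD, where steady and undetected cannot be told apart, and was kept only through the controls, so its adjusted p of 0.000165 in limma is given as a description. The other 4 were higher at light hours in all LD series, with differences from the controls of 0.94 ± 0.28 for *F53E10.1* and 1.68 ± 0.43 for *C53B7.2*. *Y40B10A.9* had a 24-h amplitude of 1.28 in LD and 1.40 in the controls with fitted peaks at 7.51 h and 19.8 h, so that the fitted peaks lay at opposite times of day. The metalloprotease gene *zmp-4* peaked at 6.83 h (amplitude 0.63) and 19.1 h (0.37).

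The 41 probe sets that passed the profile test had their most extreme score in a control array in every case. For 27 of them it was hour 6 of control series 4, the hour that control series 6 lacks, so that at this hour a single control array stands against 3 LD arrays. When hour 6 was left out of all series, 7 passed, and without the control array of series 4 at hour 18, 148 did. Named after their values were seen, those with the lowest adjusted p at that array were *ZC449.2* (8.02 there, at most 0.11 from the mean in LD), *zig-10*, a member of the immunoglobulin family (5.81, at most 0.26), and *swip-10* (5.44, at most 0.50). Other probe sets of *ZC449.2* and *swip-10* did not pass. For 9 of the 41, the LD scores hardly left the value shared by unchanging probe sets, so these were kept for the test only through the controls. With the filter applied to each condition, 29 passed.

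Some genes called in LD had controls that leaned the same way. Of the 1715 probe sets called in LD, 84 had the LD sign in both control series and a fitted control value of at least 50% of that in LD. This was 4.9%, against 18.6% of all probe sets. The 4 with the lowest LD p among those whose controls had the LD sign in both series and a fitted value of at least 50% of that in LD were *gsnl-1*, *tni-3*, *epi-1* and *C44E12.1*. The gelsolin-like gene *gsnl-1* had 1.17, 2.37 and 2.12 in LD and 0.43 and 1.92 in the controls. Its LD scores ran from 0.34 to 2.03 in the light and from −2.02 to 0.04 in the dark, with no overlap. The troponin I gene *tni-3* had 1.93, 1.84 and 1.73 in LD and 0.20 and 2.12 in the controls, and the laminin alpha chain gene *epi-1* had 3.12, 1.08 and 1.16 against 0.98 and 1.55. All 4 were called in LD (limma adjusted p 0.00263 to 0.00622), and their difference from the controls was 0.55 to 0.80, with an SE of 0.47 to 0.55 and limma adjusted p of 0.410 to 0.609. The differences from the controls were thus within 2 SE of 0, and for *gsnl-1* and *tni-3* they turned to −0.03 and −0.29 against control series 6 alone.

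In the light-sensing and cyclic GMP list, 15 of 28 genes varied enough to be tested, and none passed. Of 15 genes, 2 were higher in LD at an unadjusted p under 0.05 (8.78% of all probe sets were), 0 were lower (6.69% of all), and 1 was called in LD alone (10.0% of all). That gene was *pkg-2*, a cyclic GMP-dependent protein kinase, with 2.42, 0.93 and 0.62 in LD and −0.63 and 0.42 in the controls (difference 1.48 ± 0.58, limma adjusted p = 0.239). The photoreceptor gene *lite-1* was flat in LD, at 0.09, −0.08 and 0.00, with −0.67 and −0.02 in the controls (difference 0.38 ± 0.18, adjusted p = 0.301, limma). Its LD scores stayed between −0.10 and 0.30, and those of control series 6 between −0.04 and 0.02. *lite-1* was lost when the filter was applied to each condition, so in LD steady and undetected cannot be told apart. Its difference is given as a description. The guanylyl cyclase gene *gcy-36*, of oxygen-sensing neurons, differed by 0.39 ± 0.25.

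Homologs of clock genes and genes of the PAS family gave 0 calls among 19, with 1 higher and 1 lower in LD at an unadjusted p under 0.05 (8.78% and 6.69% of all probe sets). The *lin-42* probe set did not move in LD (all scores within 0.05 of 0), and control series 6 was as flat. It had passed the filter only through control series 4. The control array of series 4 at hour 18 reached 3.42 (difference 0.79 ± 0.57). Another *lin-42* probe set did vary in LD, with −2.74, −1.72 and −0.22 against −0.19 and −0.03 in the controls (difference −1.44 ± 1.07, limma adjusted p = 0.501). The casein kinase gene *kin-20* had 0.20, 0.52 and 0.34 in LD and 0.79 and 0.08 in the controls (difference −0.13 ± 0.59). The Timeless homolog *tim-1* had −2.05, −0.80 and −0.13 against 0.15 and −0.01 (difference −1.07 ± 0.56), and *aha-1*, the homolog of the PAS partner ARNT, had −2.50, −0.81 and −0.12 against 2.23 and −0.70 (difference −2.07 ± 0.75). The bZIP gene *atf-2* was the only one of these with large and even LD values, at 2.27, 2.67 and 3.42, but the controls gave 2.15 and −4.27 (difference 3.49 ± 1.55). The ROR-related receptor gene *nhr-23* differed by 0.99 ± 0.84, and another of its probe sets by −0.54 ± 0.59. Limma adjusted p-values for these 6 genes lay between 0.215 and 0.92.

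Lists of genes were described by counts and medians beside those of all 12926 kept genes, whose median phase differences lay between −0.06 and 0.01 in the 5 series. Of all kept genes, 4970, 5108 and 7216 were above 0 in LD series 3, 4 and 6, and 5075 and 6235 in control series 4 and 6. Counts above 0 in the lists below are to be read beside these. No list had a gene past the threshold for the difference. Structural genes of body wall muscle were higher in the light hours of all 3 LD series, with medians over 42 genes of 0.97, 0.93 and 0.96. In control series 6 the median was nearly as high (0.81), and in control series 4 it was −0.06. Of the 42, 23 were called higher in LD and 0 lower (7.52% and 2.52% of all probe sets), and 9 were higher than the controls at an unadjusted p under 0.05 (8.78% of all). All 42 were above 0 in LD series 6, 36 were in control series 6 and 19 were in control series 4. The median difference from both controls was 0.58, from control series 6 alone 0.08, and from control series 4 alone 1.02.

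The myosin heavy chain gene *unc-54* shows this pattern. Its phase differences were 1.09, 2.07 and 1.86 in LD and −0.49 and 1.07 in control series 4 and 6 (difference 1.47 ± 0.49, limma adjusted p = 0.191). Its value in control series 6 was thus next to that of LD series 3. The paramyosin gene *unc-15* (LD 2.05, 1.53 and 1.30; controls −0.43 and 1.28) differed by 1.30 ± 0.44, the alpha-actinin gene *atn-1* (2.80, 0.91 and 1.70; −0.27 and 0.24) by 1.84 ± 0.49, and the calponin-related gene *cpn-3* (1.90, 0.92 and 0.91; −0.28 and 0.82) by 1.03 ± 0.33. In LD, light-hour scores lay above all dark-hour scores for *unc-15* (lowest light score 0.49, highest dark score 0.31) and *cpn-3* (0.22 and 0.04). They overlapped slightly for *atn-1* (0.05 and 0.09) and more for *unc-54* (−0.06 and 0.56). The 9 pharyngeal muscle genes kept had a median difference of 0.03.

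The cuticle is secreted by the hypodermis and is made mainly of collagens. Over 133 collagen genes, the controls lay at −0.76 and 1.03, farther apart than any LD series (0.11, 0.59 and 0.02). Above 0 were 13 of 133 in control series 4 and 106 of 133 in control series 6. In LD, 11 were called higher, near the 7.52% of all probe sets, and 0 lower (2.52% of all). The median difference of 0.21 lay within the gap between the controls. *col-116* had the lowest p of the list, with 5.91, 1.24 and 3.20 in LD and −2.83 and 0.84 in the controls (difference 4.64 ± 1.36, limma adjusted p = 0.177). *col-76* differed by 1.58 ± 0.55. For 34 genes of moulting and cuticle cross-linking the LD medians were 0.85, 0.57 and 0.67 and the control medians 0.25 and 0.18, and 3 were called higher in LD, near the 7.52% of all probe sets. The dual oxidase gene *bli-3* was 1 of these (difference 1.76 ± 0.86).

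Genes of oocytes and the eggshell went the other way. Their 47 members had medians of −0.76, −0.22 and −0.15 in LD and 0.03 and 0.10 in the controls. Only 2, 6 and 10 of 47 were above 0 in LD series 3, 4 and 6, against 26 and 31 in the controls. All 3 LD series lay below both control series for 24 of the 47 and above for 0 (9.92% and 12.8% of all probe sets), and 11 were lower than the controls at an unadjusted p under 0.05 (6.69% of all). None was called in LD alone. The median difference was −0.45, stayed between −0.56 and −0.25 when any 1 series was left out, and was 0.02 with a linear trend over the hours.

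*cpg-2*, an eggshell proteoglycan gene, had −0.47, −0.38 and −0.16 in LD and 0.33 and 0.03 in the controls (difference −0.53 ± 0.20, limma adjusted p = 0.228; 0.18 with a linear trend). *lin-41*, an RNA regulator of oocyte growth, had −1.58, −0.27 and −0.26 against 1.49 and 0.46 (difference −1.74 ± 0.57), and the Nanos homolog *nos-2* had −1.31, −0.13 and −0.83 against 0.20 and 0.52 (difference −1.10 ± 0.41). *spn-4*, which encodes a maternal RNA-binding protein, differed by −0.60 ± 0.23. In each of these 4 genes every LD series was below 0 and every control series above it.

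Cell cycle and DNA replication genes, many of them active in the germ line, were also below 0 in all LD medians. Their 69 members had LD medians of −0.86, −0.30 and −0.17 and control medians of 0.27 and −0.09. LD lay below both controls for 20 of 69 and above for 0 (9.92% and 12.8% of all probe sets). At an unadjusted p under 0.05, 14 were lower (6.69% of all), and 5 were called lower in LD alone (2.52% of all). The Aurora B kinase gene *air-2* had −1.03, −0.42 and −0.18 in LD and 0.46 and 0.05 in the controls (difference −0.82 ± 0.27, limma adjusted p = 0.190). The kinetochore gene *knl-3* had −0.58, −0.54 and −0.71 against 0.27 and 0.27 (difference −0.88 ± 0.30), with control series in close accord. *hcp-4* and *hcp-6*, genes for the centromere protein CENP-C and a condensin subunit, differed by −1.28 ± 0.48 and −0.997 ± 0.39, and by 0.49 and 0.075 with a linear trend. The list's median difference of −0.51 was −0.24 without control series 4 and −0.08 with a linear trend.

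Transcripts of zygotic embryos also varied, with LD medians of −0.13, −0.44 and −0.98 over 42 genes and control medians of −0.06 and −0.59. Of these, 8 were lower and 3 higher than the controls at an unadjusted p under 0.05 (6.69% and 8.78% of all probe sets). In LD 6 were called lower and 2 higher (2.52% and 7.52% of all). *vet-6* and *vet-2*, named as very early transcripts, had −2.18, −2.60 and −1.04 against 2.62 and −0.91, and −1.78, −1.47 and −2.09 against 1.68 and −0.60. *elt-1*, the GATA factor gene that specifies epidermis, differed by −1.84 ± 0.49, and *pes-8*, known as a patterned embryonic transcript, ran the other way with 4.04, 1.30 and 1.51 against −0.73 and 0.45 (difference 2.49 ± 0.68). Limma adjusted p was 0.152 for *elt-1* and *pes-8* and 0.177 for both *vet* genes.

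Sperm genes were low in the early hours of LD series 3 and of control series 4. The 55 genes had medians of −2.14, −0.55 and 0.01 in LD and of −1.28 and 1.12 in the controls. Only 3 of 55 were above 0 in LD series 3 and 4 of 55 in control series 4, against 38 of 55 in control series 6. *nspd-1*, of a family of small sperm peptides whose members share probes, had −9.67, −2.18 and −2.95 in LD and −1.80 and 3.07 in the controls (difference −5.30 ± 1.99, limma adjusted p = 0.228). The sperm kinase gene *spe-6* differed by −1.87 ± 0.50 (limma adjusted p = 0.152). Vitellogenin genes, of which 3 of 5 varied enough to be kept, had a median difference of 0.11.

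**Figure D4:**
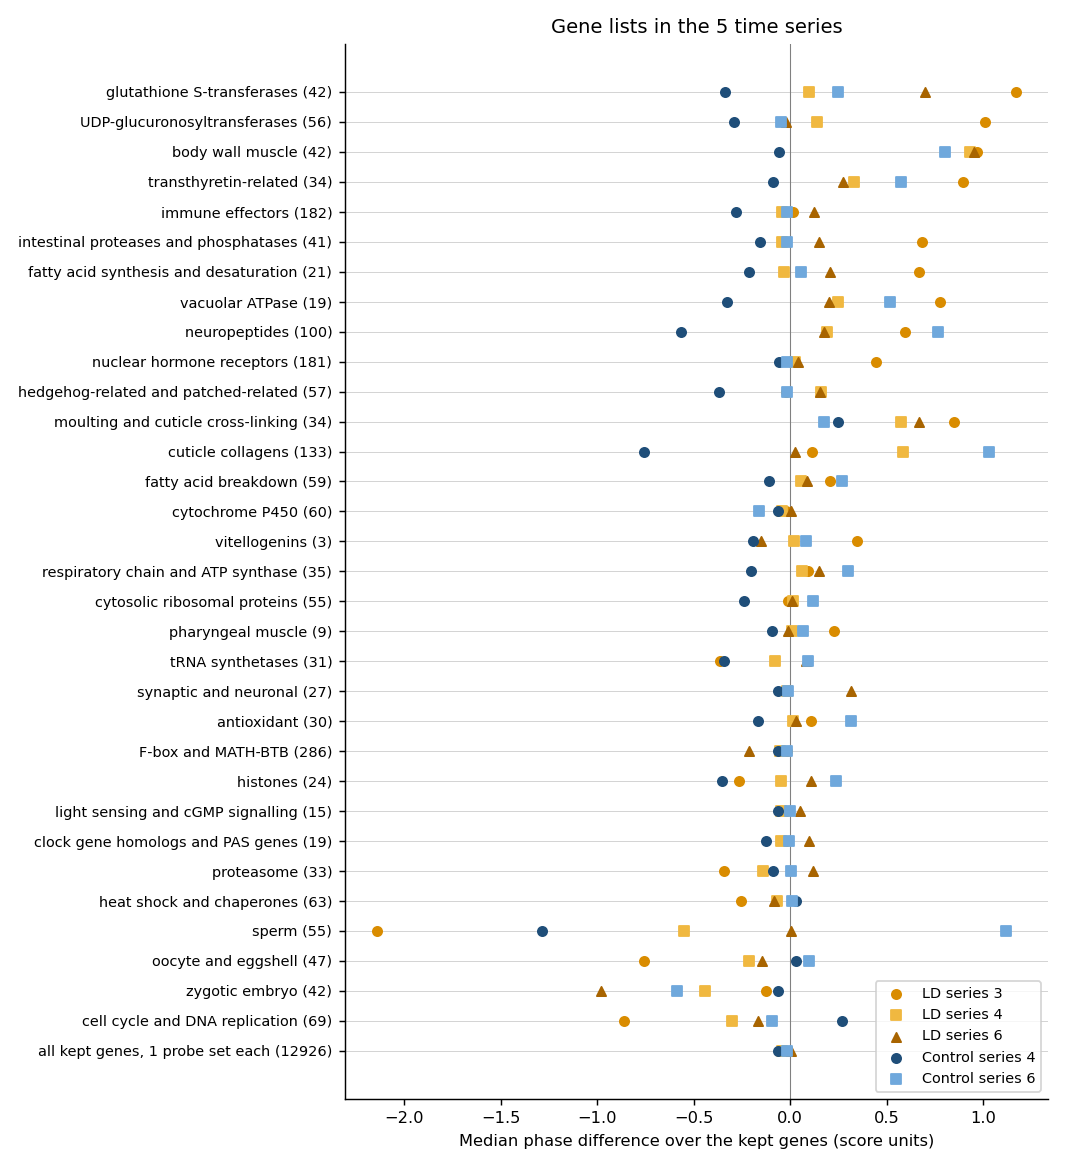
Median phase difference (x axis, score units) of each of 32 gene lists and of all kept genes in the 5 time series, ordered by the median difference of LD from the controls, with the number of kept genes in brackets. Oocyte and eggshell genes are below 0 in all LD series and above 0 in both control series. Collagens, sperm genes and neuropeptides have their control series on opposite sides of 0.

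UDP-glucuronosyltransferases, which attach sugar acids to toxic compounds, had 10 of 56 genes higher than the controls at an unadjusted p under 0.05 and 0 lower (8.78% and 6.69% of all probe sets), and 5 called higher in LD. LD lay above both controls for 12 and below for 0 (12.8% and 9.92% of all), and of all probe sets 7.52% were called higher in LD. The list's medians were 1.01, 0.14 and −0.02 in LD and −0.29 and −0.05 in the controls, so the LD medians were highest in series 3. The median difference of 0.68 was 0.41 without LD series 3, 0.393 without control series 4 and −0.122 with a linear trend. *ugt-18* was the clearest gene of the list. Its phase differences of 3.45, 2.81 and 2.87 in LD stood against −0.04 and 0.05 in the controls (difference 3.04 ± 0.68, limma adjusted p = 0.146). In LD its scores ran from −0.37 to 2.78 in the light (median 1.56) and from −2.49 to 0.51 in the dark (median −1.80), and control scores stayed between −1.12 and 0.66. *ugt-2* (LD 2.22, 0.18 and 1.41; controls −0.34 and −1.70) and *ugt-1* (3.63, 0.98 and −0.05; −0.51 and −1.68) differed by 2.22 ± 0.62 and 2.55 ± 0.81.

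Glutathione S-transferases, which couple toxic compounds to glutathione, had 12 of 42 genes called higher in LD and 0 lower, and 13 higher and 2 lower than the controls at an unadjusted p under 0.05. Over all probe sets these shares were 7.52% and 2.52%, and 8.78% and 6.69%. Their medians were 1.17, 0.10 and 0.70 in LD and −0.34 and 0.25 in the controls. The median difference of 0.80 was 0.20 against control series 6 alone and 1.28 against control series 4 alone. *gst-29* had 2.2, 0.51 and 2.04 against −0.33 and −0.80 (difference 2.12 ± 0.56, limma adjusted p = 0.152), and *gst-42* had 1.84, 0.35 and 0.83 against −0.14 and −0.23 (difference 1.18 ± 0.36). *gst-19* was moved by 1 series only. It was flat in LD (−0.02, −0.04 and −0.39) and in control series 4 (−0.06), and in control series 6 it had 5.01 and 6.70 at hours 2 and 10 and −3.20, −4.72 and −3.78 at hours 14, 18 and 22.

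Among 60 cytochrome P450 genes, 8 were higher and 5 lower than the controls at an unadjusted p under 0.05 (8.78% and 6.69% of all probe sets). In LD 6 were called higher and 5 lower (7.52% and 2.52% of all). The median difference was 0.13. Beside *cyp-37B1*, *cyp-43A1* had 2.16, 0.28 and 0.97 against −0.04 and −1.02 (difference 1.61 ± 0.48) and *cyp-33C8* had 3.02, 0.72 and 1.01 against −0.76 and 0.17 (difference 1.93 ± 0.58). Antioxidant genes (30) had a median difference of 0.01. The peroxisomal catalase gene *ctl-2* had 2.65, 0.07 and 1.00 in LD and −0.18 and −0.13 in the controls (difference 1.40 ± 0.46, limma adjusted p = 0.191).

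Immune effector genes, which encode lectins, lysozymes and antimicrobial proteins, mostly of the intestine and skin, had 41 of 182 kept genes higher than the controls at an unadjusted p under 0.05 and 2 lower (8.78% and 6.69% of all probe sets). In LD 30 were called higher and 2 lower (7.52% and 2.52% of all). The medians of the series were small, at 0.02, −0.04 and 0.13 in LD and −0.28 and −0.02 in the controls. The median of the difference was 0.46, and 0.06 over all 292 genes on the array when none was filtered out. C-type lectin genes led the list. *clec-72* had 5.09, 0.86 and 3.48 in LD and −1.60 and 0.60 in the controls (difference 3.77 ± 0.91), *clec-66* had 2.06, 0.18 and 0.76 against −1.24 and −0.29 (1.82 ± 0.45), and *clec-67* had 2.59, 0.42 and 1.35 against −0.69 and 0.31 (1.70 ± 0.45). Limma adjusted p for these 3 genes was 0.146 to 0.152. In each, LD series 3 was highest and LD series 4 lowest of the LD series.

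Genes of intestinal digestion and fat metabolism had their highest LD medians in series 3. Among 41 intestinal proteases and phosphatases, 11 were higher than the controls at an unadjusted p under 0.05 and 0 lower (8.78% and 6.69% of all probe sets). Their LD medians were 0.69, −0.04 and 0.15. The aspartyl protease gene *asp-12* had 5.56, 1.27 and 0.37 in LD and −0.37 and 0.34 in the controls (difference 2.46 ± 0.80), and the cathepsin B-like gene *cpr-4* differed by 1.46 ± 0.50. Fatty acid synthesis and desaturation genes had 5 of 21 higher and 0 lower. All 21 were above 0 in LD series 3 and 8 were in LD series 4 (4970 and 5108 of all 12926 kept genes). Fatty acid breakdown genes had 12 of 59 higher and 6 lower. Vacuolar ATPase genes (19) had medians of 0.78, 0.25 and 0.20 in LD and −0.33 and 0.52 in the controls, with 5 called higher in LD (7.52% of all). Transthyretin-related genes had 8 of 34 called higher in LD and a median difference of 0.48.

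**Figure D5:**
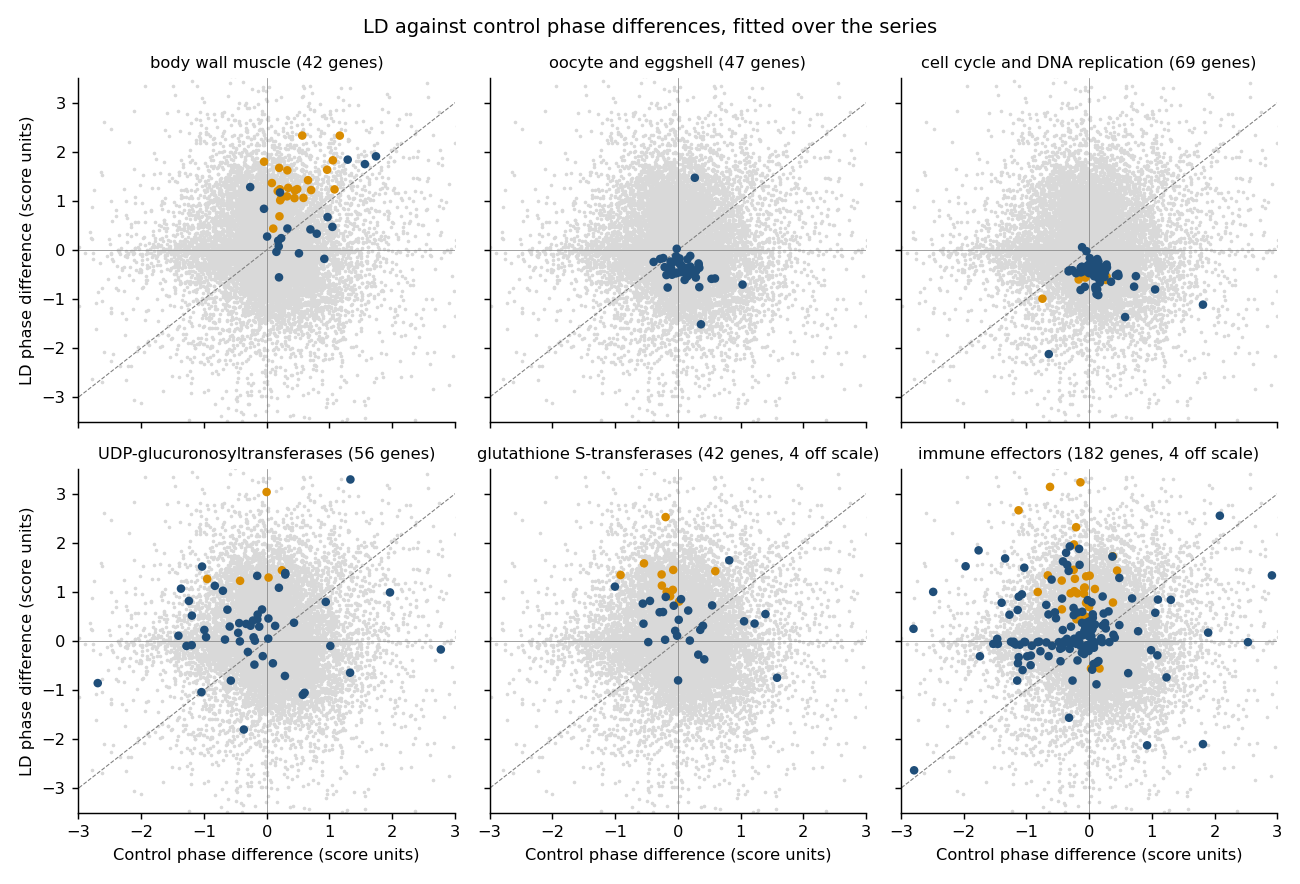
LD phase difference (y axis, score units) against control phase difference (x axis, score units), as fitted over the series, for the genes of 6 lists, with all 17095 probe sets in grey and axes limited to the central range. Orange points are genes called in LD at adjusted p under 0.05, blue points are the others, and the dashed line marks equal values. Body wall muscle has 23 orange genes, all above 0 in LD, and the oocyte and eggshell genes have 0.

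Heat shock and chaperone genes had 9 of 63 lower and 4 higher than the controls at an unadjusted p under 0.05 (6.69% and 8.78% of all probe sets). Their medians were −0.25, −0.07 and −0.09 in LD and 0.03 and 0.01 in the controls. The small heat shock gene *hsp-16.2*, a common reporter of heat stress, had a difference of 6.17 ± 1.82 (limma adjusted p = 0.177), from 1.55, 4.89 and 1.94 in LD and −3.004 and −3.86 in the controls. Its LD scores scattered widely, from −1.62 to 5.13 in the light and from −6.25 to 2.68 in the dark, and its control scores were all below 0 at hours 2 to 10 (−2.49 to −0.61). The small heat shock genes *hsp-43* and *hsp-25* had 2.80, 0.49 and 0.61 against −0.21 and −0.08, and 2.101, 0.98 and 1.09 against −0.10 and 0.66 (differences of 1.45 ± 0.46 and 1.15 ± 0.38). Of the members lower in LD, *hsp-75* had the lowest p, with −1.38, −1.18 and −0.71 in LD and 0.73 and 0.10 in the controls (difference −1.54 ± 0.46, limma adjusted p = 0.177).

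Neuropeptide genes had control medians of −0.57 and 0.76 over 100 genes, on either side of LD (0.60, 0.19 and 0.18), with 7 higher and 0 lower than the controls at an unadjusted p under 0.05 and 8 called higher in LD, near the 8.78% and 7.52% of all probe sets. The insulin-like gene *ins-5* differed by 2.11 ± 0.66 through control series 4 alone (−3.25, with −0.02 in control series 6 and 0.56, 0.32 and 0.01 in LD). Synaptic and neuronal genes (27) had a median difference of 0.03, and the octopamine synthesis gene *tbh-1* had −0.55, −0.31 and −0.37 in LD against 0.89 and 0.20 (difference −0.99 ± 0.35). Nuclear hormone receptors had 28 of 181 higher and 9 lower (8.78% and 6.69% of all probe sets), and 29 called higher in LD and 2 lower (7.52% and 2.52% of all). *nhr-115* (LD 9.43, 1.80 and 0.77; controls −1.31 and −1.60) differed by 5.44 ± 1.69, largely through LD series 3. F-box and MATH-BTB genes, a large family of substrate adaptors for protein breakdown, had 32 of 286 higher and 18 lower, not far from the 8.78% and 6.69% of all. Their median difference was 0.00, and *fbxa-74* alone reached 13.9 in LD series 3 (1.90 and 2.2 in the others, −1.20 and −3.27 in the controls). Hedgehog-related and patched-related genes (57) had 6 higher and 2 lower (8.78% and 6.69% of all), and a median difference of 0.28.

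Housekeeping lists had their members on opposite sides of 0 in the control series in some cases. Of 55 cytosolic ribosomal protein genes, 1 was above 0 in control series 4 and 45 in control series 6 (medians −0.24 and 0.12), while the LD medians were −0.01, 0.01 and 0.01. Of 35 respiratory chain and ATP synthase genes, 1 was above 0 in control series 4 and 32 in control series 6. Among them the cytochrome c reductase gene *ucr-2.1* had 1.15, 0.65 and 0.39 in LD and −0.53 and 0.13 in the controls (difference 0.97 ± 0.26, limma adjusted p = 0.152), and the ATP synthase gene *asb-2* differed by 1.06 ± 0.32. Histone genes, whose probes are shared between near-identical copies, had medians of −0.26, −0.05 and 0.11 in LD and −0.35 and 0.24 in the controls, with 3 of 24 higher and a median difference of −0.01. Proteasome genes (33) and tRNA synthetase genes (31) were lower in LD series 3 (medians −0.34 and −0.36) than in LD series 4 (−0.14 and −0.08) and LD series 6 (0.12 and 0.08), with −0.09 and −0.34 in control series 4 and 0.01 and 0.09 in control series 6. Their median differences were −0.10 and 0.03, with 0 and 2 genes higher and 1 and 3 lower at an unadjusted p under 0.05. Over all probe sets, 8.78% were higher and 6.69% lower at that threshold.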

How the data were processed

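Total RNA of whole animals was hybridized to Affymetrix *C. elegans* Genome Arrays. Per the submitters' processing notes, the authors used GCRMA in R 2.7.1. They took log2 values relative to the time-series mean and set each array to mean 0 and variance 1. The deposited unit is thus a score without level, and arrays limit precision by their number (18 LD, 11 control). By their zero sums, LD series 4 and 6 had been centred together with their free-running day.

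The table has 22625 probe sets, 77 of them array controls, which were not used. Among the remaining 22548, 20766 had 1 symbol (17118 genes), 887 several and 895 none, and 6711 IDs end in _s_at or _x_at and can read related genes. Each array has a score that unchanging probe sets share, found where its scores lie closest together (5% of them). A probe set was dropped if its distance from that score, as a root mean square over the 29 arrays, was under 0.1. This dropped 5453 and kept 17095 (12926 genes).

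limma 3.58.1 in R 4.3.3 was fitted to all 29 arrays with the 5 series as terms, moderated variances (22 residual and 1.71 prior degrees of freedom) and Benjamini-Hochberg adjustment over kept probe sets, two-sided. Fits were tested on simulated data. Python 3.11.15, numpy 2.4.6, pandas 2.3.3 and matplotlib 3.10.9 were used.

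Genes were named by rule: the 12 lowest p with 1 LD sign and no overlap with controls, the 6 lowest p of 24-h terms, up to 4 members per list, 4 whose controls leaned the way of LD, and 7 chosen genes. The 32 lists take 1 probe set per gene, by ID. Members and lists were chosen with earlier results of these data known. Alternatives cover the filter, scaling, weights, trend, pooled arrays, each series left out, pairing, and hours.

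Series numbers 4 and 6 occur in both conditions. At hours 2, 10, 14, 18 and 22 the difference between series 4 and series 6 was taken in LD and in the controls. The differences of LD and of the controls correlated across probe sets at 0.21, −0.27, 0.14, 0.12 and −0.001. The main test has no block. Controls were run in parallel with LD, but the labels do not say that a number marks a shared run. Replicate series are separate experiments by number only.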

Additional observations from a re-analysis of the deposited data

Results flagged for a closer look

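In 2 of the 5 time series, 1 array had a relative SD far from the others of its series, past Dixon's 95% limit, which chance passes in about 1 in 20 groups. These were the control array of series 4 at hour 18 (1.95) and the LD array of series 3 at hour 22 (1.44).

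The profile test told LD from the controls for 41 probe sets. Of the genes named by rule, *W03F11.5* (adjusted p = 0.000165, limma) and *npr-12* (adjusted p = 0.00104, limma) were below the threshold, both highest at hour 22 in both control series. *W03F11.5* did not leave the score of unchanging probe sets in LD and was kept only through the controls, so its p is no support for a difference. With matched series numbers and hours blocked, the profile test called 0.

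In a further group of named genes, every LD series moved one way and both control series the other, although the test of the difference was not passed. Most of them had been chosen for lack of overlap. Values of LD minus control were higher for *dct-6* (1.78), *nhr-88* (4.45), *cyp-37B1* (2.37), *F53E10.1* (0.94) and *C53B7.2* (1.68). They were lower for *taf-11.1* (−2.44), *W05H9.4* (−4.65), *tbx-9* (−1.92), *K08H2.3* (−2.75), *meg-3* (−2.84), *clh-3* (−3.95) and *cus-2* (−5.12).

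The same split of signs was found in the medians of 3 lists, where the difference was not tested. These were oocyte and eggshell genes (median difference −0.45), heat shock and chaperone genes (−0.16) and nuclear hormone receptors (0.28). In the last list the control medians were −0.06 and −0.02, next to those of all genes.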

How the results depend on the processing

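Leaving out 1 time series gave 0 to 1253 calls for the LD minus control phase difference, 0 to 1123 for the 24-h terms (1123 when control series 6 was dropped, 280 when control series 4 was) and 21 to 2913 for the profile. It gave 5 to 2406 for LD alone and 0 to 288 for the controls alone, where the 1 call was lost when any LD series was dropped. With array weights the 5 counts were 1, 0, 79, 4716 and 0. With a linear trend over the hours, which is close to the early against late contrast itself, they were 0, 1, 0 and 1, and the profile test was not run. With 1 value per series all 4 that could be fitted were 0, without hour 6 they were 0, 0, 7, 758 and 2, on the recovered array scale 0, 0, 37, 1098 and 0, and without the control array of series 4 at hour 18 they were 0, 0, 148, 2096 and 1 (the last 2 settings were chosen after seeing the data). Other filters, median and MAD scaling, robust variances and leaving out the pooled arrays kept each count within 1.5 times.

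With the replicate block on matched series number and hour, the difference, the 24-h terms and the profile each had 0 calls in limma (1044, 925 and 531 at an unadjusted p under 0.05), and *epi-1* turned to −0.30. Controls were run in parallel with the LD series, but no label ties a number to a shared run, and the deviations of same-numbered series did not correlate at every hour.

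List medians of the difference without 1 series ranged from 0.0844 to 1.02 for muscle, 0.196 to 1.28 for glutathione S-transferases and 0.281 to 0.657 for immune effectors. With the trend the medians were 0.0172 for oocyte and eggshell genes, −0.0774 for cell cycle genes, −0.122 for UDP-glucuronosyltransferases and 0.198 for immune effectors. The immune median was 0.0635 with no filter and 0.634 with either stricter filter.

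With the trend, these differences turned sign: *W03F11.5* −0.30, *npr-12* −0.77, *lite-1* −0.016, *tim-1* 0.39, *atf-2* −0.67, *cpg-2* 0.18, *hcp-4* 0.49, *hcp-6* 0.075, *ucr-2.2* −0.44 and *nuo-2* −0.043. Without 1 series, differences that turned sign ranged from −0.029 to 1.46 for *gsnl-1*, −0.29 to 1.63 for *tni-3*, −0.12 to 0.90 for *epi-1*, −0.0046 to 1.42 for *lin-42*, −0.44 to 0.27 for *kin-20* and −0.015 to 0.58 for *nuo-2*. On the recovered scale *kin-20* was 0.026. The causes were not tested. Of the 84 genes followed, 71 values passed the threshold under another setting, all of them without LD series 4, control series 4 or control series 6.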
